A study of Homo sapiens with 40 samples.

Results

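The genes described here are 10 outputs of the MAPK (ERK) signalling pathway: the phosphatase genes DUSP4, DUSP5 and DUSP6, the Sprouty and Spred genes SPRY2, SPRY4, SPRED1 and SPRED2, and the ETS transcription factor genes ETV1, ETV4 and ETV5. They were chosen by gene symbol, and each of the 10 matched 1 gene among the 58336 of the authors' deposited table, of which 19280 had values in at least 1 cell line. The values are differences between cells treated with GSK3368712 and cells treated with DMSO. Of the 100 possible pairs of gene and line, 92 had values, and 6 genes (DUSP6, SPRY4, SPRED1, SPRED2, ETV4 and ETV5) had values in every line. DUSP4 and SPRY2 were without values in NCIH522, DUSP5 in LK2, NCIH226 and NCIH520, and ETV1 in NCIH522, PC9 and NCIH226. Per the labels, genes at or under an FPKM of 1 were filtered out of a comparison.

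Growth factor receptors act through RAS, RAF and MEK on the kinase ERK, and active ERK raises the transcription of genes that hold the pathway back. The DUSP enzymes remove phosphate from MAP kinases, and Sprouty and Spred proteins act further up, between the receptor and RAF. ETV1, ETV4 and ETV5 form the PEA3 subfamily of ETS factors, and their genes, like DUSP6 and the Sprouty genes, are held down by the repressor CIC when ERK activity is low. The transcript levels of these genes are widely read as a gauge of pathway output in lung cancer cells.

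The 10 cell lines, all of non-small cell lung cancer, were each grown with GSK3368712 (GSK712 in the labels), an inhibitor of the type I protein arginine methyltransferases, or with the vehicle dimethyl sulfoxide (DMSO). Each arm of a line had 2 RNA-seq libraries, 40 in all, and the lines carry no further genotype in the labels. The row labels place NCIH1563, NCIH1975, NCIH522 and PC9 in lung adenocarcinoma (LUAD) and EBC1, LK2, NCIH226, NCIH520, SKMES1 and SW900 in lung squamous cell carcinoma (LUSC). As background, EBC1 is known for an amplified MET gene, and NCIH1975 and PC9 for mutant EGFR. The titles end in D5, which is not spelled out, and dose and time were not analysed here.

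All values within a line are those of the authors' deposited table, which gives 1 log2 fold change and standard error per gene and line and no value per library. Values above 0 are taken to mean higher with GSK712, which the row labels name before DMSO. Between 12721 and 14565 genes per line had values, mean normalized counts summed to between 57647556 and 108557964 per line in the authors' deposited table, and the depth of single libraries was not analysed here. Over all genes of a line, the median log2 fold change in the authors' deposited table was −0.01 to 0.04. Median standard errors of the 10 genes in the authors' deposited table were 0.23 to 0.334 in the LUAD lines and 0.078 to 0.188 in the LUSC lines, so the 2 subtypes were not measured with the same precision. Whether an arm's 2 libraries were separate cultures is not stated, so the p-values measure only the spread between libraries. Of 7 squamous markers, 0 to 4 had values in each LUAD line and 1 to 3 in each LUSC line. TP63 had values in NCIH1975 and PC9 among the LUAD lines and in SKMES1 and SW900 among the LUSC lines. SOX2 had values in NCIH522 among the LUAD lines and in EBC1, LK2, NCIH520 and SW900 among the LUSC lines. KRT5, KRT6A and PKP1 each had values in PC9 and in at least 1 LUSC line. The glandular marker NKX2-1 had values in 1 LUAD line (NCIH1975) and 3 LUSC lines (LK2, NCIH520 and SW900). Of the other glandular markers, KRT7 had values in all 10 lines, and FOXA2 in NCIH1975 and every LUSC line but NCIH226. NAPSA had values in NCIH1975, EBC1 and SW900, and SFTPB in SW900. Most squamous markers were thus without values in the LUSC lines, and the subtype names follow the row labels. Of 4 leukocyte markers, PTPRC and CD3E had no values in any line, and LYZ had a value only in NCIH520 (1.18 CPM). CD68 had values in 8 lines, from 2.69 CPM in NCIH226 to 175 CPM in NCIH1975, and its log2 fold change in the authors' deposited table was 2.51 in NCIH1563 and 0.33 in EBC1, both higher at the authors' adjusted p, and did not pass in the other 6. The part of these markers in the results was not tested.

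RefSeq start windows (GRCh38.p14, 250 bases before to 50 bases after an annotated start) were given for 6 of the genes, in 14 windows: DUSP6, SPRY2, SPRY4, SPRED1, SPRED2 and ETV1. They are shown where they hold a match, because the group is defined by its shared transcriptional control. The letters searched on both strands were the CIC octamers TGAATGAA, TGAATGGA, TCAATGAA and TCAATGGA, the ETS motif CCGGAAG, the AP-1 motif TGANTCA and the CRE TGACGTCA. In these windows no match shared a base with a match to another motif. The 3 stretches of 150 bases below read 5′ to 3′ on the gene's strand, with matches in capitals.
DUSP6 (chr12:89352472-89352621, minus strand, bases −120 to 30 from the start): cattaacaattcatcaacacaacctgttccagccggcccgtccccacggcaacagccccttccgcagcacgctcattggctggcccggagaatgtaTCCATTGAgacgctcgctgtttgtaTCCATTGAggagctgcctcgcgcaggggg
ETV1 (chr7:13991451-13991600, minus strand, bases −175 to −26 from the start): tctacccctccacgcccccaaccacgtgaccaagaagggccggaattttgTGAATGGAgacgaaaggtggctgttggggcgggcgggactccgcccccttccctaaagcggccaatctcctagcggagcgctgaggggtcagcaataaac
SPRED2 (chr2:65366749-65366898, minus strand, bases −120 to 30 from a downstream start): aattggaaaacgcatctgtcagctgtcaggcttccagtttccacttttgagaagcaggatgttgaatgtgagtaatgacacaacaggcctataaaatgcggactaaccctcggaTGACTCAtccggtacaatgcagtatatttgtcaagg

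The DUSP6 window held 2 CIC octamers, the first beginning 24 bases before the start and the other at base 2 after it, both as TCCATTGA, the reverse complement of TCAATGGA. At least 2 CIC octamers occurred in 0.327% of the 35116 windows of this length, and at least 1 in 3.77%. One of the 6 ETV1 windows held a CIC octamer, which begins 125 bases before that start. One of the 2 SPRED2 windows held 2 AP-1 matches, the one in capitals at 6 bases before the start and TGAATCA at base 35 after it, while 7.71% of all windows held at least 1. The ETS motif (10.3% of all windows) and the CRE (1.85%) were not among the letters of the 14 windows, and the SPRY2, SPRY4 and SPRED1 windows held no match to any of the motifs. A match describes these letters only, and no binding was measured.

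The first comparison asked how the 10 genes differed between GSK712 and DMSO in each line. Their direction differed between lines. In EBC1 all 10 were lower with GSK712, while in NCIH1563 6 were higher and 0 lower. NCIH226 and LK2 also had 6 higher and 0 lower, of 8 and 9 genes with values. SKMES1 had 5 lower and 0 higher. In RNA from whole cultures, fewer responding cells and a smaller change per cell cannot be told apart.

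In EBC1, 10 of 10 genes were lower by the authors' DESeq2 adjusted p under 0.05, where 23.4% of all genes listed were lower, and the median log2 fold change of the 10 was −0.95 in the authors' deposited table. NCIH1563 had 6 of 10 genes higher, where 23.3% of all genes were higher, with a median of 0.93 in the authors' deposited table. DUSP4, DUSP5, DUSP6, SPRY4, ETV4 and ETV5 made up these 6, and SPRED2 and ETV1 were the 2 genes of NCIH1563 with values below 0. NCIH226 had 6 of 8 higher, where 15.4% of all genes were higher, with all 8 above 0 and a median of 0.72 in the authors' deposited table. In LK2, 6 of 9 were higher, where 19.9% of all genes were higher, with all 9 above 0 and a median of 0.24 in the authors' deposited table. Both lines are LUSC lines, as is EBC1, so the 3 lines with the most uniform sign belong to 1 subtype, which holds 6 of the 10 lines. NCIH520, SKMES1 and SW900, also LUSC lines, had values of both signs, and the LUAD line NCIH1975 had 9 of 10 values below 0.

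SKMES1 had 5 of 10 genes lower, where 15.6% of all genes were lower, with a median of −0.22 in the authors' deposited table. SW900 had 4 higher and 1 lower of 10, where 35.7% of all genes were called in either direction, with a median of 0.12 in the authors' deposited table. NCIH520 had 3 higher and 1 lower of 9, against 23.8% of all genes in either direction, with a median of 0.23 in the authors' deposited table. NCIH1975 had 1 of 10 lower, where 3.58% of all genes were lower, but 9 of 10 values were below 0 and the median was −0.66 in the authors' deposited table. NCIH522 and PC9 had 0 called of 7 and 9 genes, where 1.66% and 4.47% of all genes were called in either direction. Backgrounds in either direction were 39.3% in LK2, 31.2% in NCIH226, 31.4% in SKMES1 and 7.91% in NCIH1975. In all 4 LUAD lines the median standard errors of these genes were larger than in the LUSC lines. A count of 0 or 1 in NCIH1975, NCIH522 and PC9 therefore does not show that the genes were unaffected there. Precision alone did not separate NCIH522 from NCIH1563, as their median standard errors were 0.23 and 0.24 by the authors' deposited table. The NCIH522 log2 fold changes had a narrower range there (−0.14 to 0.45) than those of NCIH1563 (−0.40 to 2.53). The part of precision in the absent calls was not tested.

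Counted over all lines, 25 of the 92 values were higher, 18 lower and 49 not called, which is 46.7% called where 27.4% of all values in the table were called. Of these values, 12 were at or beyond 1 on the log2 scale in either direction and passed the authors' adjusted p, where 6.02% of all values did, in EBC1, NCIH1563, NCIH226 and NCIH1975. ETV4 passed that size in all 4 of these lines and DUSP6 in 3 of them (EBC1, NCIH1563 and NCIH226).

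**Figure D1:**
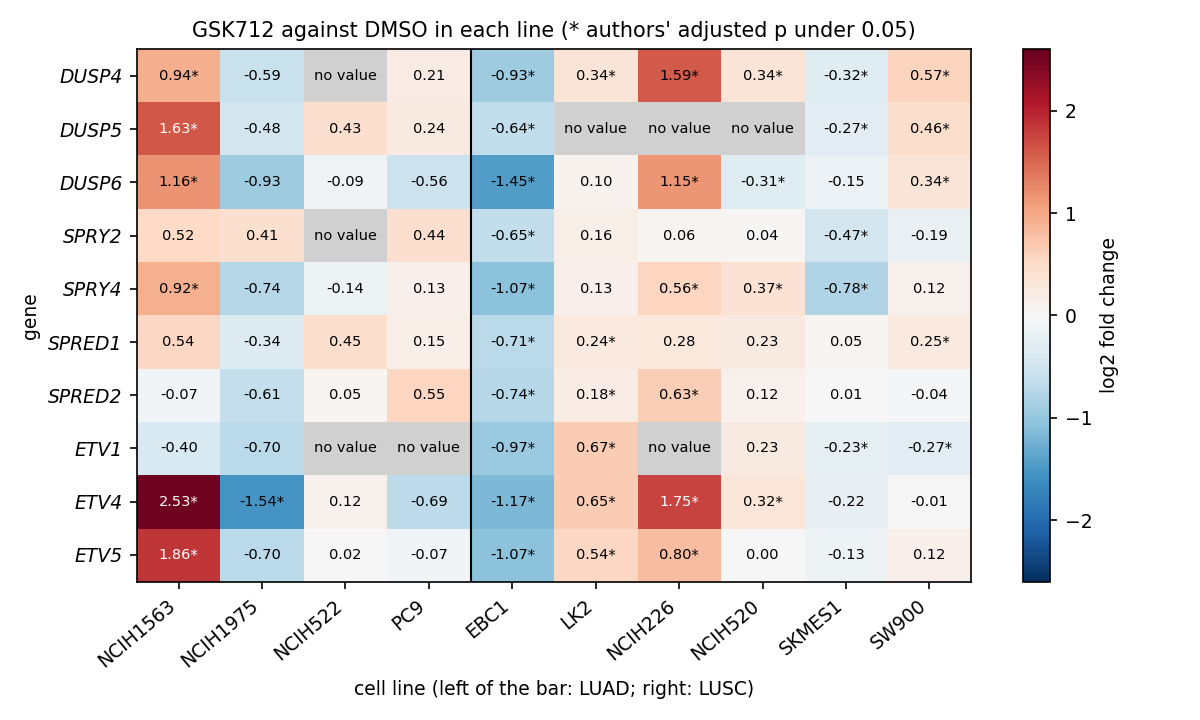
Response of the 10 genes (down the side) as log2 fold change with GSK712 against DMSO in each cell line (along the bottom), with LUAD lines left of the bar, LUSC lines right of it, and an asterisk for an adjusted p under 0.05 in the authors' deposited table. The EBC1 column is negative throughout, from −1.45 to −0.64, and the NCIH1563 column reaches 2.53 for ETV4.

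The 3 MAP kinase phosphatase genes were all higher in NCIH1563 and SW900 and all lower in EBC1. DUSP6 (ENSG00000139318, GRCh38 chr12:89347232-89353271, minus strand) encodes a cytoplasmic phosphatase that acts selectively on ERK. In the LUAD lines the authors' deposited table gives DUSP6 log2 fold changes of 1.16 in NCIH1563, −0.93 in NCIH1975, −0.09 in NCIH522 and −0.56 in PC9. For the LUSC lines the authors' deposited table gives DUSP6 −1.45 in EBC1, 0.10 in LK2, 1.15 in NCIH226, −0.31 in NCIH520, −0.15 in SKMES1 and 0.34 in SW900. DUSP6 was thus higher in NCIH1563, NCIH226 and SW900, lower in EBC1 and NCIH520, and not called in the other 5 lines. The EBC1 value corresponds to 0.366 times the DMSO level, with a standard error of 0.100 and an adjusted p of 1.51e-45 by DESeq2 in the authors' deposited table. The NCIH226 value rests on a mean of only 89.4 normalized counts, with a standard error of 0.409 and an adjusted p of 0.0198 by DESeq2 in the authors' deposited table. An antisense transcript, AC024909.2, overlaps DUSP6, and whether strand was used in the counting is not given in the sources used here.

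DUSP4 (ENSG00000120875, chr8:29333064-29350668, minus strand) encodes a nuclear phosphatase of ERK and other MAP kinases. The authors' deposited table gives DUSP4 log2 fold changes of 0.94 in NCIH1563, −0.59 in NCIH1975 and 0.21 in PC9 among the LUAD lines. Among the LUSC lines DUSP4 stood at −0.93 in EBC1, 0.34 in LK2, 1.59 in NCIH226, 0.34 in NCIH520, −0.32 in SKMES1 and 0.57 in SW900 in the authors' deposited table. DUSP4 was called in all 6 LUSC lines, 4 times higher and 2 times lower, and was higher in NCIH1563. Its rise of 1.59 in NCIH226 was the largest change of DUSP4 (standard error 0.193 on the log2 scale, DESeq2 adjusted p = 1.32e-14 in the authors' deposited table).

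DUSP5 (ENSG00000138166, chr10:110497838-110511544, plus strand) encodes a nuclear phosphatase specific for ERK. Its log2 fold changes in the LUAD lines were 1.63 in NCIH1563, −0.48 in NCIH1975, 0.43 in NCIH522 and 0.24 in PC9 in the authors' deposited table. In EBC1 it stood at −0.64, in SKMES1 at −0.27 and in SW900 at 0.46 in the authors' deposited table. These 3 LUSC values passed the adjusted p, as did the 3.08-fold rise in NCIH1563 (DESeq2 adjusted p = 2.9e-13 in the authors' deposited table). The 3 phosphatase genes were higher both in SW900, which had the highest level of each, and in NCIH1563, where the DUSP6 level was among the lowest.

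Among the Sprouty and Spred genes, SPRY4 had the largest SD of log2 fold change over lines. SPRY4 (ENSG00000187678, chr5:142310427-142326455, minus strand) encodes an inhibitor of receptor signalling to RAS. The authors' deposited table gives SPRY4 log2 fold changes of 0.92 in NCIH1563, −0.74 in NCIH1975, −0.14 in NCIH522 and 0.13 in PC9. In the LUSC lines SPRY4 stood at −1.07 in EBC1, 0.13 in LK2, 0.56 in NCIH226, 0.37 in NCIH520, −0.78 in SKMES1 and 0.12 in SW900 in the authors' deposited table. It was higher in NCIH1563, NCIH226 and NCIH520 and lower in EBC1 and SKMES1. An antisense gene, SPRY4-AS1, overlaps it.

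SPRY2 (ENSG00000136158, chr13:80335976-80340951, minus strand) encodes a related inhibitor. Its log2 fold changes in NCIH1563, NCIH1975 and PC9 were 0.52, 0.41 and 0.44 in the authors' deposited table, none of them past the adjusted p. SPRY2 stood at −0.65 in EBC1, 0.16 in LK2, 0.06 in NCIH226, 0.04 in NCIH520, −0.47 in SKMES1 and −0.19 in SW900 in the authors' deposited table. Only the EBC1 and SKMES1 values passed, both as lower (DESeq2 adjusted p = 2.7e-06 and 2.96e-05 in the authors' deposited table). Of the 10 genes, SPRY2 alone was not called higher in any line.

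SPRED1 (ENSG00000166068, chr15:38252326-38357249, plus strand) encodes a protein that brings the RAS inhibitor neurofibromin to the membrane. Its log2 fold changes were 0.54 in NCIH1563, −0.34 in NCIH1975, 0.45 in NCIH522 and 0.15 in PC9 in the authors' deposited table. The LUSC values were −0.71 in EBC1, 0.24 in LK2, 0.28 in NCIH226, 0.23 in NCIH520, 0.05 in SKMES1 and 0.25 in SW900 in the authors' deposited table. SPRED1 was higher in LK2 and SW900 and lower in EBC1, and the other 7 values were not called.

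SPRED2 (ENSG00000198369, chr2:65310851-65432637, minus strand) encodes a protein of the same family. It stood at −0.07 in NCIH1563, −0.61 in NCIH1975, 0.05 in NCIH522 and 0.55 in PC9 in the authors' deposited table. Its LUSC values were −0.74 in EBC1, 0.18 in LK2, 0.63 in NCIH226, 0.12 in NCIH520, 0.01 in SKMES1 and −0.04 in SW900 in the authors' deposited table. SPRED2 was higher in LK2 and NCIH226 and lower in EBC1. A transcript within one of its introns, AC012370.1, lies on the same strand, and whether it affected the assignment of reads to SPRED2 was not tested.

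**Figure D2:**
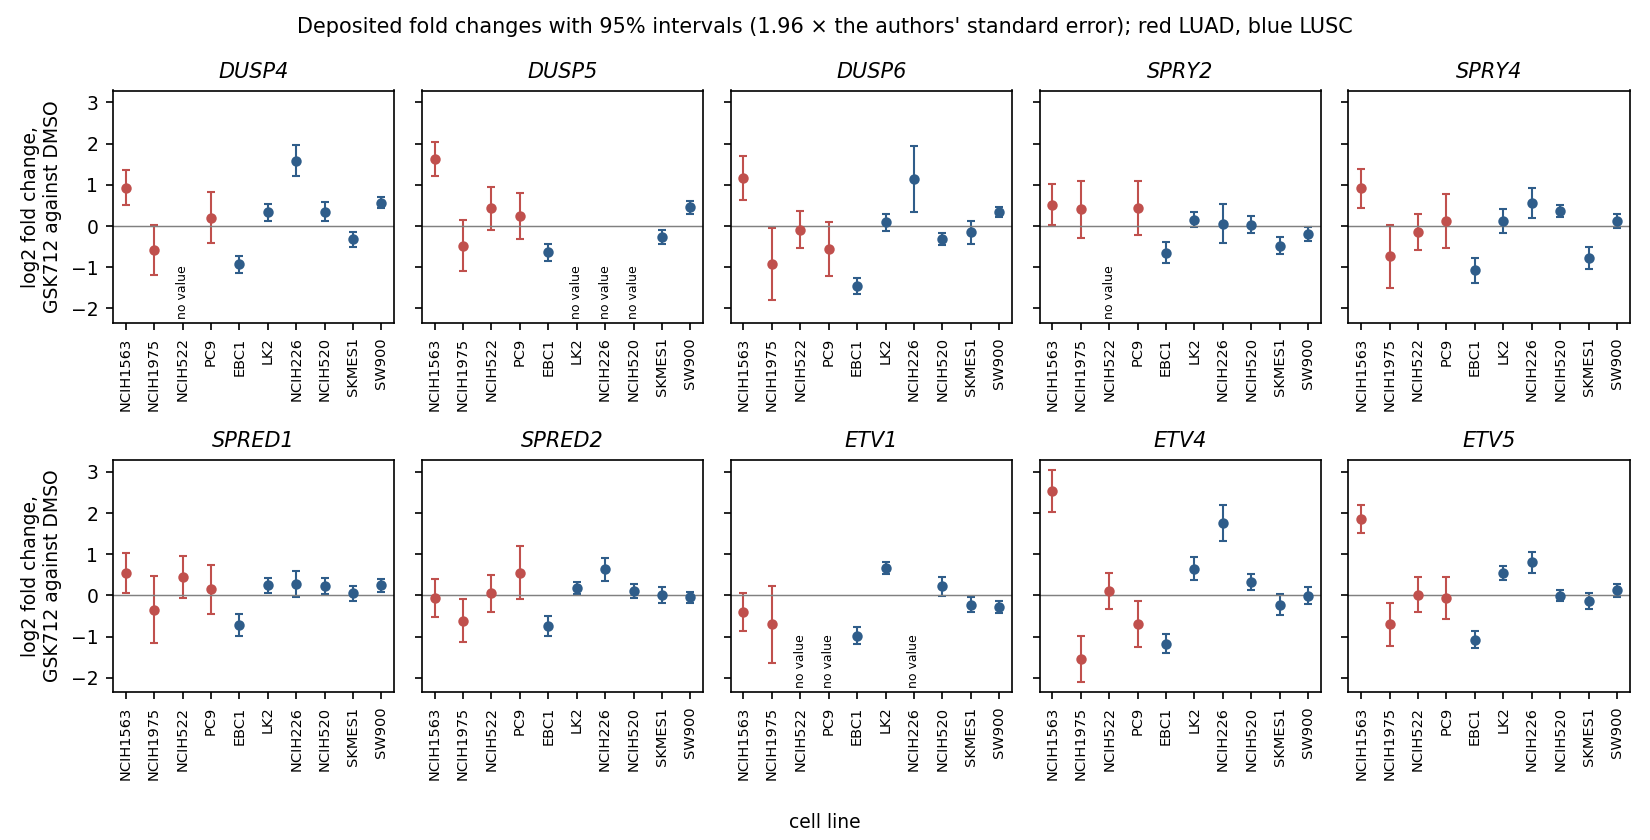
Log2 fold change with GSK712 against DMSO (vertical axis) in each cell line (horizontal axis), 1 panel per gene, with bars of the 95% interval from the standard error in the authors' deposited table, red for LUAD and blue for LUSC lines. ETV4 spans from −1.54 in NCIH1975 to 2.53 in NCIH1563, SPRED1 only from −0.71 in EBC1 to 0.54 in NCIH1563.

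Of the 10 genes, ETV4 had the largest SD of log2 fold change over lines. ETV4 (ENSG00000175832, chr17:43527844-43579620, minus strand), a transcriptional activator studied as a driver of invasion in several carcinomas, stood at 2.53 in NCIH1563, −1.54 in NCIH1975, 0.12 in NCIH522 and −0.69 in PC9 in the authors' deposited table. Its LUSC values were −1.17 in EBC1, 0.65 in LK2, 1.75 in NCIH226, 0.32 in NCIH520, −0.22 in SKMES1 and −0.01 in SW900 in the authors' deposited table. With GSK712, ETV4 was therefore higher in NCIH1563, LK2, NCIH226 and NCIH520 and lower in NCIH1975 and EBC1. In the authors' deposited table the NCIH1563 value is a 5.78-fold rise (standard error 0.257 on the log2 scale, DESeq2 adjusted p = 7.06e-21). The NCIH1975 value corresponds to 0.344 times the DMSO level (standard error 0.282, DESeq2 adjusted p = 6.37e-06 in the authors' deposited table), the only value called among the 10 genes in that line. DHX8 overlaps ETV4 on the opposite strand.

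ETV5 (ENSG00000244405, chr3:186046308-186110318, minus strand) encodes a close relative of ETV4. It stood at 1.86 in NCIH1563, −0.70 in NCIH1975, 0.02 in NCIH522 and −0.07 in PC9 in the authors' deposited table. Its LUSC values were −1.07 in EBC1, 0.54 in LK2, 0.80 in NCIH226, 0.00 in NCIH520, −0.13 in SKMES1 and 0.12 in SW900 in the authors' deposited table. ETV5 was higher in NCIH1563, LK2 and NCIH226 and lower in EBC1. The 3.63-fold rise in NCIH1563 had a standard error of 0.174 on the log2 scale and an adjusted p of 1.19e-24 by DESeq2 in the authors' deposited table. By whole gene spans, DGKG overlaps ETV5 on the same strand and ETV5-AS1 on the other. Shared exons were not examined, and whether read assignment to ETV5 was affected was not tested.

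ETV1 (ENSG00000006468, chr7:13891228-13991425, minus strand), the third PEA3 factor, did not follow the other two in every line. It stood at −0.40 in NCIH1563 and −0.70 in NCIH1975, neither past the adjusted p, in the authors' deposited table. In the LUSC lines it stood at −0.97 in EBC1, 0.67 in LK2, 0.23 in NCIH520, −0.23 in SKMES1 and −0.27 in SW900 in the authors' deposited table. ETV1 was thus higher in LK2 only, and lower in EBC1, SKMES1 and SW900. In SW900, where the level of ETV1 was highest, DUSP4, DUSP5, DUSP6 and SPRED1 were higher while ETV1 was lower (DESeq2 adjusted p = 0.00077 in the authors' deposited table).

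The second comparison asked whether a gene's response to GSK712 differed between lines beyond the standard errors. By Cochran's Q with Benjamini-Hochberg adjustment over 13641 genes with values in at least 5 lines, all 10 genes differed between lines, where 64.4% of all genes tested did. ETV4 had the largest Q of the 10 (333.5 on 9 degrees of freedom, Cochran's Q adjusted p = 6.66e-64) and SPRED1 the smallest (49.1 on 9 degrees of freedom, adjusted p = 7.82e-07). The SPRED1 difference rested on EBC1, and without that line its Q was 7.87 (adjusted p = 0.516). As the call is common, the SD over lines gives the size: 1.25 for ETV4, 0.83 for DUSP6, 0.81 for ETV5, 0.64 for SPRY4, 0.43 for SPRED2 and 0.37 for SPRED1 (n = 10 lines each). Among the genes with values in every line the median SD was 0.29, and the SD was smaller than that of ETV4 in 99.9% of them, of DUSP6 in 98.8%, of ETV5 in 98.6% and of SPRY4 in 96.1%. SPRED2 and SPRED1 stood above 81.4% and 71.4%.

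NCIH1563 and EBC1 marked the upper and lower ends of the range for DUSP5, DUSP6, SPRY2, SPRY4, SPRED1 and ETV5. The difference of the 2 deposited log2 fold changes, NCIH1563 minus EBC1, was 3.70 for ETV4 (standard error 0.28), from 2.53 in NCIH1563 and −1.17 in EBC1. It was 2.93 for ETV5 (standard error 0.21), 2.61 for DUSP6 (0.29), 2.26 for DUSP5 (0.23), 1.99 for SPRY4 (0.29) and 1.87 for DUSP4 (0.24). SPRED1 at 1.25 (0.28), SPRY2 at 1.17 (0.28), SPRED2 at 0.67 (0.27) and ETV1 at 0.57 (0.25) differed least. These lines were picked after their values were seen, so no test is given. The 2 lines were normalized separately, and NCIH1563 is a LUAD and EBC1 a LUSC line.

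The third comparison took the line as the replicate and asked whether a gene moved in 1 direction across lines. By limma, 0 of the 10 genes passed an adjusted p under 0.05, where 19.5% of 13641 genes passed (9.31% rose and 10.2% fell). At an unadjusted limma p under 0.05, 0 of the 10 passed, where 33.7% of all genes did. The mean log2 fold change over lines was 0.24 ± 0.77 for DUSP4 (SD, n = 9; 95% interval −0.26 to 0.73), 0.20 ± 0.77 for DUSP5 (n = 7; −0.36 to 0.75) and −0.07 ± 0.83 for DUSP6 (n = 10; −0.58 to 0.43). SPRY2 averaged 0.03 ± 0.41 (n = 9; 95% interval −0.24 to 0.31), SPRY4 −0.05 ± 0.64 (n = 10; −0.44 to 0.34), SPRED1 0.11 ± 0.37 (n = 10; −0.13 to 0.36) and SPRED2 0.01 ± 0.43 (n = 10; −0.27 to 0.29). ETV1 averaged −0.24 ± 0.55 (n = 7; 95% interval −0.65 to 0.17), ETV4 0.18 ± 1.25 (n = 10; −0.57 to 0.92) and ETV5 0.14 ± 0.81 (n = 10; −0.35 to 0.63). Every interval included 0, and that of ETV4 was the widest. The limma adjusted p ranged from 0.392 for ETV1 to 0.971 for SPRED2, and the exact two-sided sign-flip permutation p over lines from 0.266 to 0.914 for the same genes. The median of the 10 means was 0.07, against 0.01 over all genes tested.

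LUAD and LUSC lines were compared next. By limma, 0 of the 10 genes differed between subtypes in their response to GSK712, where 0.0155% of the 12887 genes tested did. SPRY2 was nearest, averaging 0.46 in 3 LUAD lines and −0.18 in 6 LUSC lines, a difference of 0.63 (95% interval 0.19 to 1.08, limma adjusted p = 0.598, unadjusted 0.0100 by the same limma fit). For DUSP6 the means were −0.11 in 4 LUAD and −0.05 in 6 LUSC lines, a difference of −0.05 (95% interval −1.13 to 1.02). For ETV4 they were 0.11 in LUAD and 0.22 in LUSC lines, a difference of −0.11 (95% interval −1.71 to 1.48). Each subtype held lines of both directions for both genes. Precision was lower in the LUAD lines, so noise of the lines and subtype cannot be told apart.

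The fold changes of the 10 genes tended to run in parallel from line to line, in some pairs far more closely than in others. Of their pairs, 44 shared values in at least 6 lines, and Pearson's r over lines was above 0 in all 44, from 0.25 to 0.97 with a median of 0.76. Each point is 1 line, and the 2 values of a point come from the same 4 libraries and the same normalization. ETV4 and ETV5 had an r of 0.95 (Spearman's rho 0.93, n = 10 lines), and 0.89 without NCIH1563 and NCIH226, the lines farthest from the ETV4 median. DUSP6 had an r of 0.93 with ETV4 (rho 0.87, n = 10), 0.92 with ETV5 (rho 0.95, n = 10) and 0.92 with DUSP4 (rho 0.90, n = 9). Without EBC1 and NCIH1563 the values were 0.91 with ETV4 and 0.89 with ETV5. For every pair, the 2 lines farthest from the median of 1 gene, the earlier in the order of the opening list, were then left out. That left 32 of 44 above 0, with a median of 0.61 and a lowest value of −0.41, so part of the parallel rests on those lines. Lines far out for the other gene of a pair could stay in. For SPRY4 with ETV4, EBC1 and SKMES1 were left out and NCIH1563 was kept, and r went from 0.85 to 0.91. Pairs of all genes were not counted in the same way, so whether the 10 genes ran closer together than other genes was not tested.

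**Figure D3:**
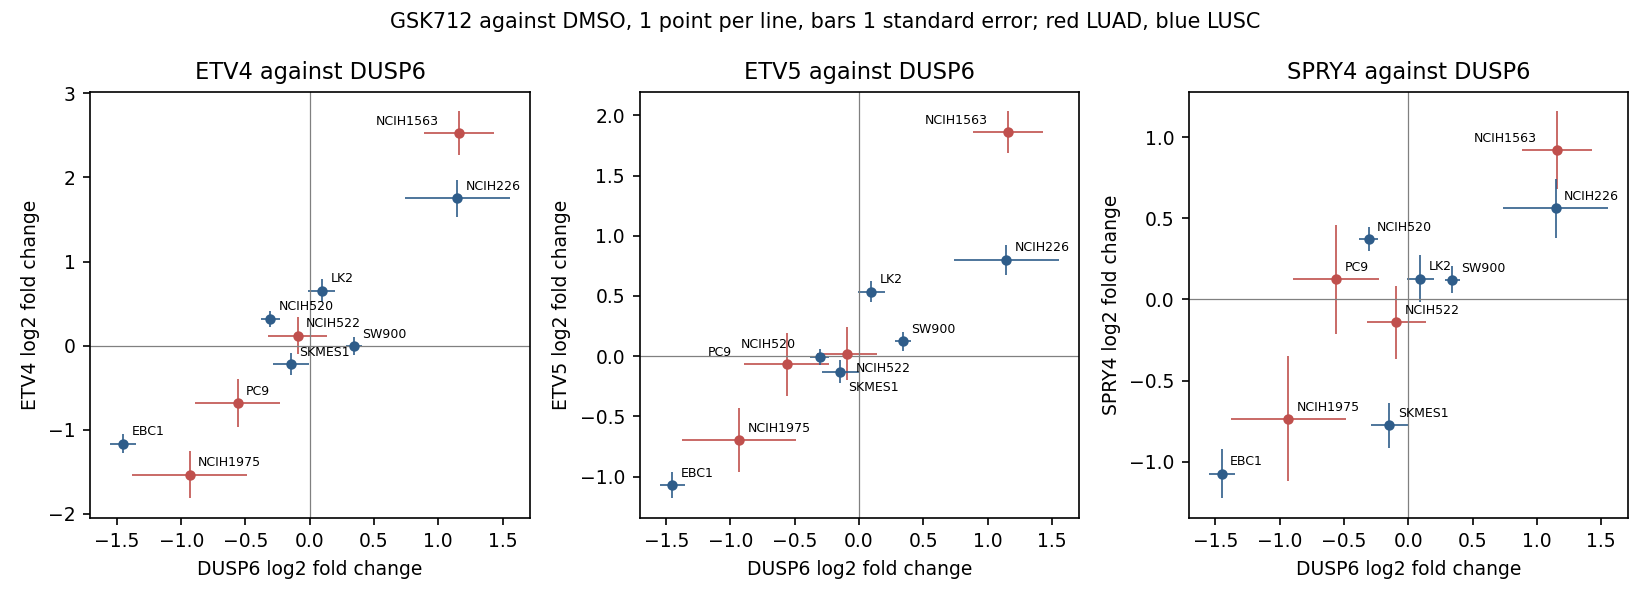
Log2 fold change with GSK712 against DMSO of ETV4, ETV5 and SPRY4 (vertical axes) plotted on that of DUSP6 (horizontal axes), 1 point per cell line, bars of 1 standard error in the authors' deposited table, red for LUAD and blue for LUSC lines. NCIH1563 and NCIH226 sit at the upper right and EBC1 and NCIH1975 at the lower left of all 3 panels.

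Among 9055 genes with a gene symbol and values in every line, those whose fold changes over the 10 lines were most like each gene were taken by Pearson's r. For DUSP6 they were CARD19 (0.96) and ARID3B (0.94), for ETV4 AP1S1 (0.97) and WDR1 (0.97), and for ETV5 ACLY (0.98) and BCL2L1 (0.96). For SPRY4 they were ARHGAP26 (0.94) and ZPR1 (0.94), for SPRED1 GRK2 (0.95), and for SPRED2 RALB (0.96) and EWSR1 (0.90). These values describe 10 points out of a search over many genes, and the search covered only genes with values in every line, so DUSP4, DUSP5, SPRY2 and ETV1 were not part of it.

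The level of the genes also differed between lines. Levels are the authors' mean normalized counts over both treatments, expressed as CPM (scaled by the line's summed counts) and per kb of the longest transcript. They are not the authors' FPKM, and some genes that kept values had levels under 1, such as DUSP6 in NCIH226 and NCIH1975. The lines were normalized separately, and the table gives no spread over libraries, so neighbours in the order of lines cannot be told apart by a spread. Among the 6 genes without a missing line, DUSP6 had the widest range of level, from 0.353 in NCIH226, 0.754 in NCIH1975 and 1.15 in NCIH1563 to 87.5 in SW900, a ratio of 248 between the ends. ETV4 ranged in level from 2.35 in NCIH226 and 2.73 in NCIH1563 to 64.4 in NCIH522. ETV5 ranged from 6.44 in NCIH226 to 87.4 in NCIH520, and ETV1 from 0.518 in NCIH1975 to 33.6 in SW900. Among lines with values, NCIH226 had the lowest level of 6 of the 10 genes and SW900 the highest of 7. Lines in which a gene had no value, such as NCIH226 for DUSP5 and ETV1, are not part of this order: per the labels, the authors removed genes of low FPKM in each line, so the lowest levels given for DUSP4, DUSP5, SPRY2 and ETV1 cover only the lines with values.

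DUSP4 levels lay between 1.48 in NCIH226 and 30.4 in SW900, and DUSP5 levels between 2.61 in NCIH522 and 31.6 in SW900. SPRY2 ranged from 1.80 in NCIH226 to 17.8 in SW900 and SPRY4 from 1.05 in NCIH1975 to 27.1 in NCIH520. SPRED1 ranged from 0.318 in NCIH1975 to 11.4 in SW900 and SPRED2 from 3.73 in NCIH226 to 34.4 in SW900. Summed over the genes with values in a line, the level in CPM (not per length) was 82.5 in NCIH226 (8 genes, without DUSP5 and ETV1). It was 228 in NCIH1563, 432 in EBC1 and 1274 in SW900 (10 genes each). Thus 2 lines in which 6 genes were higher, NCIH226 and NCIH1563, were among the 3 lines with the lowest summed level, with NCIH1975 at 158, while LK2 stood at 487 (9 genes). The sums do not all cover the same genes. These levels are means over both treatments and so include the response itself, and no level with DMSO alone is given. The part of the level in the responses was not tested.

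**Figure D4:**
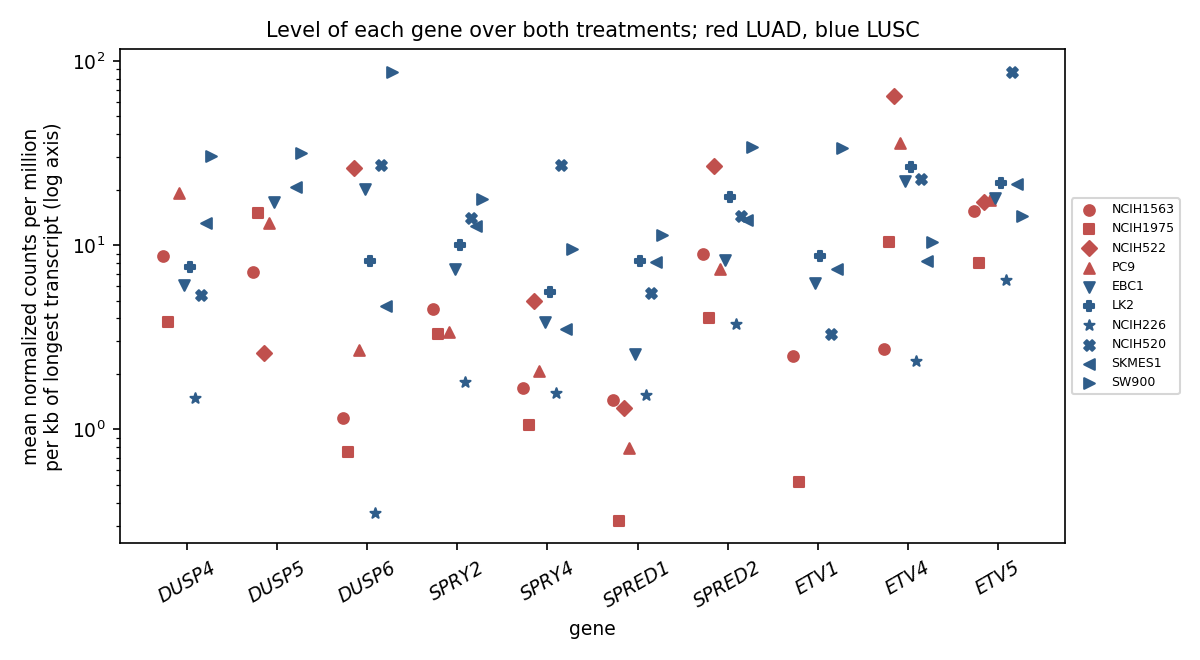
Level of each gene (horizontal axis) in each cell line (1 symbol per line, red for LUAD, blue for LUSC), as the authors' mean normalized counts over both treatments, in CPM per kb of the longest transcript, on a log axis. DUSP6 spreads from 0.353 in NCIH226 to 87.5 in SW900, SPRED2 only from 3.73 to 34.4.

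Other genes of the pathway were read from 5 further lists. Of 16 other genes known as ERK outputs, 13 of 15 with values were lower and 1 higher in EBC1, where 46.4% of all genes were called in either direction, with a median of −0.78 in the authors' deposited table. In NCIH1563, 8 of 15 were higher and 2 lower, where 48.1% of all genes were called in either direction, with a median of 0.59 in the authors' deposited table. In SKMES1 1 was higher and 8 were lower of 15, where 31.4% of all genes were called in either direction. In NCIH1975 0 were higher and 3 lower of 15, where 7.91% of all genes were called in either direction. NCIH226 and LK2, where 31.2% and 39.3% of all genes were called in either direction, had calls in both directions. NCIH226 had 3 higher and 5 lower of 14 (median −0.07 in the authors' deposited table). LK2 had 4 higher and 3 lower of 11 (median −0.05 in the authors' deposited table). The 10 feedback and ETS genes thus had medians on the same side of 0 as these genes in EBC1, NCIH1563, SKMES1 and NCIH1975, and on the other side in the remaining 6 lines.

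FOSL1, which encodes the AP-1 subunit FRA1 and was picked out after its values were seen, stood at 2.51 in NCIH1563, −0.79 in EBC1, −1.40 in NCIH1975 and 1.01 in LK2 in the authors' deposited table. PHLDA1, picked in the same way, stood at 0.99 in NCIH1563, −0.93 in EBC1, −0.93 in NCIH1975 and, by the authors' deposited table, 0.62 in NCIH226. All 8 of these values passed the authors' adjusted p. They are a selection: FOSL1 was above 0 in 4 and below 0 in 6 of 10 lines. PHLDA1 was above 0 in 2 lines, both given here, and below 0 in 7 of its 9 lines. Across lines, 0 of the 16 other ERK output genes rose and 0 fell by limma (median of the means −0.10), where 9.31% of all genes rose and 10.2% fell. At an unadjusted p 1 passed, where 33.7% of all genes did.

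**Figure D5:**
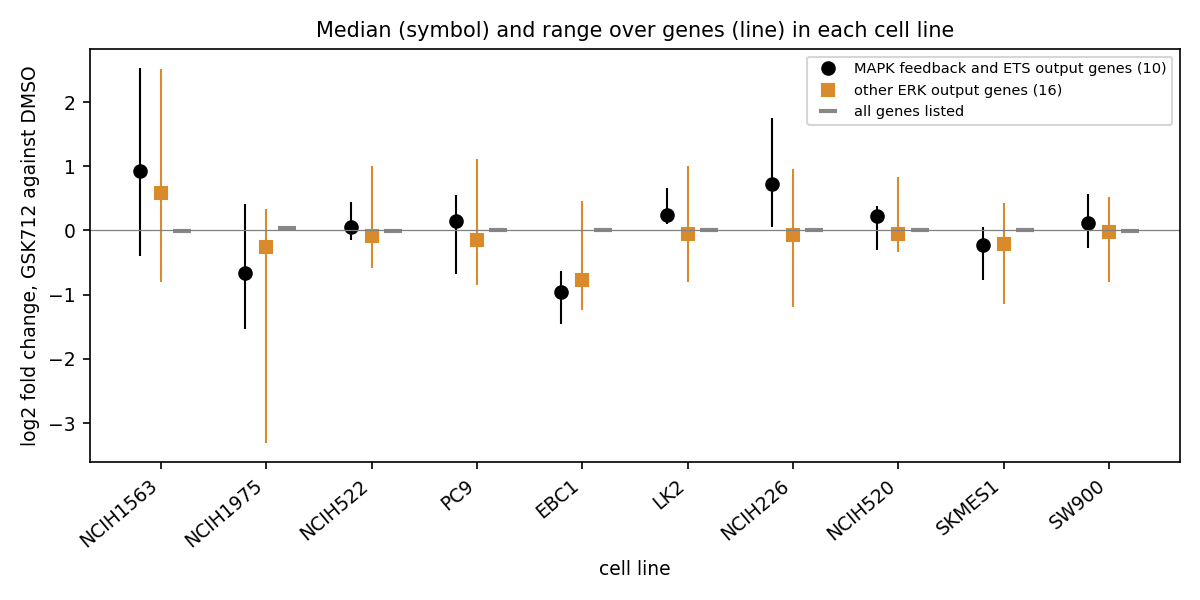
Median (symbol) and range over genes (line) of the log2 fold change with GSK712 against DMSO in each cell line, for the 10 feedback and ETS genes, for 16 other ERK output genes and, as a dash, for all genes listed. The medians of both groups lie near −0.95 and −0.78 in EBC1 and near 0.93 and 0.59 in NCIH1563, and they part in NCIH226 at 0.72 and −0.07.

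Of all genes tested, 9.31% rose and 10.2% fell across lines by limma. Among 25 genes of the MAPK cascade from receptors to ERK, 1 rose and 0 fell, with a median of the means of 0.00. That gene was BRAF, a RAF kinase, averaging 0.94 ± 0.66 on the log2 scale (n = 10 lines, SD), above 0 in 10 of 10 lines (limma adjusted p = 0.0051), and NDUFB2 overlaps it on the opposite strand. BRAF was higher in NCIH1563 (1.99), where 6 of the 10 genes were higher, and in EBC1 (0.97), where all 10 were lower, in the authors' deposited table. Of 23 other feedback genes and RAS inhibitors tested, 3 rose and 0 fell, where 9.31% of all genes rose and 10.2% fell (median of the means 0.11). ERRFI1, an inhibitor of the EGF receptor, rose by 0.40 ± 0.27 (n = 10, above 0 in 9 of 10 lines, limma adjusted p = 0.0091). DUSP10, a phosphatase of JNK and p38, rose by 0.80 ± 0.69 (n = 8, above 0 in 7 of 8 lines, limma adjusted p = 0.0258), and this call was lost without EBC1 (limma adjusted p = 0.0531) or NCIH1975 (0.0521), with an ordinary one-sample test (0.0693), or without NCIH1975, NCIH522 and PC9 together (0.0894). DUSP9, an ERK phosphatase, rose by 0.34 ± 0.17 (n = 7, above 0 in 7 of 7 lines, limma adjusted p = 0.0242), a call lost without LK2, NCIH520 or SW900 (limma adjusted p = 0.0617, 0.0613 and 0.0637). DUSP9 was weakly expressed and was removed by the filter on low expression that was tried as an alternative. Without NCIH1975, NCIH522 and PC9 together, too few lines remained to test it. DUSP10 was higher in EBC1 by 1.75 in the authors' deposited table, where DUSP4, DUSP5 and DUSP6 were lower.

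Of 17 other ETS factors and CIC pathway genes tested, 0 rose and 0 fell across lines by limma (median of the means 0.12), where 9.31% of all genes rose and 10.2% fell. At an unadjusted p 4 passed, a share below the 33.7% of all genes. Of 14 immediate early genes 0 rose and 0 fell (median of the means 0.19), with 4 at an unadjusted p in the same limma fit, also a share below that of all genes. FOSL1, ELF1 and TRIB2 each stand in 2 of these lists.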

How the data were processed

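RNA-seq was run on 40 libraries of 10 cell lines (2 per arm). Per the labels' protocols, the kit was TruSeq Stranded mRNA and reads were pairs of 151 bases. Per the submitters' processing notes, FastQC, Salmon 0.12.0, DESeq2 and GRCh38 were used. The authors' deposited table of DESeq2 comparisons was the only source of values. It gives mean normalized counts over both arms (a signal, under DESeq2's usual column name), log2 fold changes and standard errors in log2 units, a test statistic (a score, equal to fold change over standard error within 0.166), adjusted p-values and the authors' mark of calls, none per library. From these deposited values, limma 3.58.1 in R 4.3.3 tested the mean fold change and the LUAD against LUSC difference for genes with values in at least 5 lines, Cochran's Q tested differences between lines, and Benjamini-Hochberg adjustment ran over all genes tested. An authors' adjusted p under 0.05 was a call. The tests were tested on simulated data. Positions and transcript lengths came from GENCODE 29, start windows from RefSeq GRCh38.p14, and figures were drawn with Python 3.11.15, pandas 2.3.3, numpy 2.4.6 and matplotlib 3.10.9. All 10 genes were named by rule. Of the other lists, those past the test across lines were named by rule. Outside this rule, values of FOSL1, PHLDA1, JUNB, FOS, EGR1, EGFR, MET, ERBB2 and ERBB3 were given after they were seen. The 10 genes and all lists were chosen with earlier results of these data known. Alternatives tried were p adjusted again, a fold threshold, filters on low or missing values, centring, other variance models, a random-effects meta-analysis and leaving out lines. A few results that these rules take are not reported here.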

Additional observations from a re-analysis of the deposited data

Results flagged for a closer look

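All 10 genes were picked up because their responses to GSK712 differed between cell lines by Cochran's Q (adjusted by Benjamini-Hochberg over 13641 genes, of which 64.4% also differed). Among the phosphatase genes Q was 253.5 for DUSP4, 143.4 for DUSP5 and 282.4 for DUSP6. For the Sprouty and Spred genes Q was 52.8 for SPRY2, 135.0 for SPRY4, 49.1 for SPRED1 and 71.4 for SPRED2. For the ETS factor genes Q was 198.9 for ETV1, 333.5 for ETV4 and 291.4 for ETV5. EBC1 and NCIH1563 stood at opposite ends for DUSP5, DUSP6, SPRY2, SPRY4, SPRED1 and ETV5. What sets the lines apart was not tested.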

How the results depend on the processing

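No paired analysis was possible because the deposited table holds no values per library, and for the same reason no replicate could be left out. Across lines, none of the 10 genes passed under any alternative run. A random-effects meta-analysis called 5041 of all genes, against 2658 by limma, and leaving out 1 line gave 1973 to 3387. Requiring a log2 fold change of at least 1 left 8178 of 37265 calls over all lines and genes, and 12 of 43 among the 10 genes. Between subtypes, 1 gene was called among genes with values in all lines, against 2, and 0 to 4 with 1 line left out. With 1 line left out, Cochran's Q called 9 or 10 of the 10 genes and 6650 to 8835 of all genes. The mean over lines changed sign in 19 of 185 combinations of gene and alternative, none past the test. By random effects SPRY2 stood at −0.0366. Without NCIH1975, NCIH522 and PC9, SPRY2 stood at −0.0761, DUSP6 at 0.12 and SPRY4 at 0.0367. With 1 line left out, the means lay between −0.043 and 0.334 for DUSP5, −0.212 and 0.0782 for DUSP6, −0.026 and 0.12 for SPRY2, −0.157 and 0.0641 for SPRY4, −0.0608 and 0.0913 for SPRED2, −0.0866 and 0.365 for ETV4, and −0.0549 and 0.271 for ETV5. The lowest ETV4 and ETV5 means were those without NCIH1563. Beyond the lines left out, the cause of these changes was not tested.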

Other observations

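Immediate early genes, which respond to ERK within minutes, were split in EBC1, where all 10 feedback and ETS genes were lower. There 5 were higher and 6 lower of 14, where 46.4% of all genes were called in either direction. JUNB, an AP-1 subunit, stood at 2.08, FOS at 1.37 and EGR1 at 0.99 in EBC1 in the authors' deposited table, all past the adjusted p and picked out after their values were seen. JUNB was also higher in NCIH1563 at 2.24 in the authors' deposited table, where 6 of the 10 feedback and ETS genes were higher. In NCIH1563, 9 immediate early genes were higher and 2 lower of 14, where 48.1% of all genes were called.

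The receptor genes EGFR and MET, picked out after their values were seen, were lower in both NCIH1563 and EBC1. EGFR stood at −2.65 in NCIH1563 and −1.20 in EBC1, and MET at −1.52 in NCIH1563 and −0.41 in EBC1, in the authors' deposited table, all past the adjusted p. Other receptor genes of the same list differed from these, with ERBB2 higher in NCIH1563 at 0.42 and ERBB3 higher in EBC1 at 0.24 in the authors' deposited table. Across lines EGFR averaged −0.94 ± 1.07 (SD, n = 8 lines) and did not pass (limma adjusted p = 0.0649).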
